A study of Mus musculus with 8 samples.

Results

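Adipokines are hormones and secreted factors made in quantity by fat. The mRNAs of 10 genes were followed, the 8 adipokine genes Adipoq, Lep, Retn, Cfd, Rarres2, Nampt, Rbp4 and Agt, and the adiponectin receptor genes Adipor1 and Adipor2. They were chosen by symbol, and all 10 were found among the 18395 genes of the count table. The data were RNA-seq counts from mouse adipose tissue, with 4 libraries labelled WT and 4 labelled KO, in which Kindlin-2 (gene Fermt2), an integrin-binding focal adhesion protein, had been removed from brown adipocytes. All mice of both groups had spent 6 hours at 4 °C, so neither group shows the tissue without cold. The series asks how loss of Kindlin-2 in brown adipocytes affects tolerance of cold. The series title speaks of brown adipose tissue, whereas the sample labels say adipose tissue only. The driver of the deletion and the age of the mice are not stated in the labels. Neither is it stated that each library came from its own mouse, and the p-values then reflect only how far these libraries scatter, which may be technical.

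White fat is the classical source of these hormones, and brown fat makes many of them too. Adiponectin circulates as multimers and acts through its receptors on AMP-activated kinase, PPAR-alpha and ceramide breakdown. Leptin reports fat stores to the brain, adipsin (Cfd) starts the alternative complement pathway, and chemerin (Rarres2) attracts immune cells and acts on adipocytes. Angiotensinogen (Agt) and retinol-binding protein 4 (Rbp4) are best known as liver products that fat also secretes.

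The libraries held between 33672272 and 43253559 counts each. Levels are given as CPM, counts scaled to a common library size, after TMM normalisation of the library sizes. The TMM factors were 0.8785 to 0.9482 in WT and 1.047 to 1.155 in KO. This scaling therefore lowers KO levels relative to WT levels. Overlap of the groups is judged on these scaled levels unless stated otherwise. The WT mean of Fermt2 was 230 ± 19.4 CPM and its KO mean 168 ± 25.3 CPM (SD, n = 4), with every KO library below every WT library (log2 fold change -0.45 ± 0.14 SE, edgeR adjusted p = 0.134, DESeq2 adjusted p = 0.0336). With total counts alone Fermt2 overlapped between genotypes, at a log2 fold change of -0.19 (edgeR adjusted p = 0.374). The brown adipocyte gene Ucp1 was present in every library, at 5082 to 6576 CPM in WT and 1792 to 4301 CPM in KO. After TMM scaling the Ucp1 groups did not overlap, but with total counts alone they did. Fewer adipocytes and less RNA per adipocyte cannot be told apart in whole tissue. A pair of libraries stood apart: WT replicate 3 held 30330 CPM of 6 summed skeletal muscle markers against at most 196 CPM elsewhere, and KO replicate 2 held the most macrophage and T and NK cell marker RNA. The comparison without these 2 libraries, with 3 per group, was run because they stand apart and is called the 6-library comparison below.

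After TMM scaling, the chemerin mRNA Rarres2 lay higher in every KO library than in any WT library. The adiponectin mRNA Adipoq and the receptor mRNA Adipor1 lay lower in every KO library. The other 7 genes overlapped between genotypes. Scaled by total counts alone, Adipoq and Adipor1 also overlapped between genotypes, while Rarres2 did not. The edgeR log2 fold change was then -0.28 for Adipoq, -0.21 for Adipor1 and 1.04 for Rarres2. With all 8 libraries none of the 10 genes passed an adjusted p of 0.05 in edgeR's quasi-likelihood test, and neither did any of the 13901 genes tested (0% called). At an unadjusted p under 0.05 there were 3 of the 10 genes and 2993 of all tested genes (21.5%). Groups that did not overlap were likewise found for 3 of the 10 genes, beside 13.4% of all tested genes (5.8% higher and 7.56% lower in KO). Of the 10 genes 6 lay lower in KO and the median log2 difference over the 10 was -0.33, beside 49.5% of all genes and a median of 0.00362 over all. The median over the 10 was -0.04 without WT replicate 3, -0.07 with scaling by total counts and -0.12 in the 6-library comparison. In the 6-library comparison Rarres2 was called higher and none of the 10 lower, beside 3.32% of all tested genes (1.82% higher and 1.5% lower). DESeq2 called Rarres2 higher and Adipoq and Adipor1 lower, beside 8.71% of the genes it tested (4% higher and 4.71% lower).

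**Figure D1:**
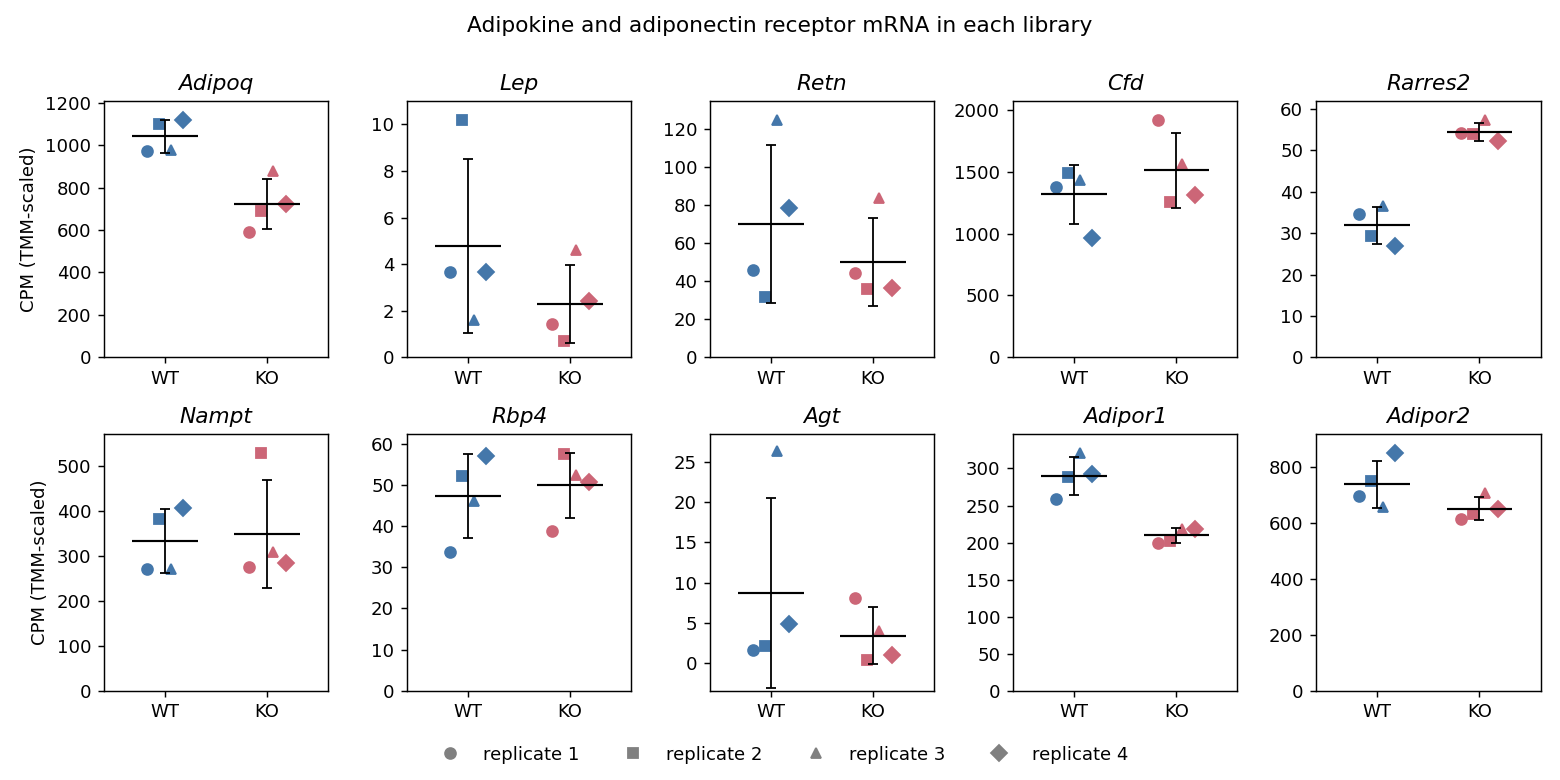
CPM (TMM-scaled, linear axes, each panel with its own scale) of the 10 genes in the 4 WT and 4 KO libraries; symbols mark replicates, lines the mean and bars the SD. KO and WT points are separate for Adipoq, Rarres2 and Adipor1, and the highest Agt point (26.4 CPM, WT) and the highest Nampt point (530 CPM, KO) stand away from their groups.

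The levels of the 10 genes spanned several orders of magnitude. Per kilobase of annotated exon, Cfd was the most abundant, with a mean of 1533 CPM per kb over all libraries, which ranked it 22 of 13868 genes with a known length. Adipoq followed at 639 CPM per kb (rank 56), then Adipor2 at 116 CPM per kb and Nampt at 67.6 CPM per kb. The level of Adipor1 was 49.7, of Retn 38.0, of Rbp4 36.2 and of Rarres2 16.3 CPM per kb. Adipor2 lay above Nampt in each of the 8 libraries, most narrowly in KO replicate 2 (106 against 104.8 CPM per kb). The values of Nampt and Adipor1, of Adipor1 and Retn, and of Retn and Rbp4 overlapped between libraries. The order within each of these pairs was not the same in every library, and their differences were not tested. Agt at 3.19 CPM per kb and Lep at 1.05 CPM per kb were lowest and overlapped as well. The length used for Rarres2 includes its overlap with another gene, described below. Within WT the SD was 7.52% of the mean for Adipoq and 8.84% for Adipor1, against 78.4% for Lep and 136% for Agt.

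Adipoq encodes adiponectin. It measured 971, 1102, 979 and 1118 CPM in WT replicates 1 to 4 and 593, 691, 881 and 725 CPM in KO replicates 1 to 4. After TMM scaling every KO library lay below every WT library, with KO replicate 3 nearest to WT. With total counts alone KO replicate 3 lay above WT replicates 1 and 3. The WT mean was 1043 ± 78.5 CPM and the KO mean 722 ± 120 CPM (SD, n = 4), which is -0.53 ± 0.14 in log2 units (SE; edgeR unadjusted p = 0.00427, adjusted p = 0.118). In the 6-library comparison the log2 fold change was -0.54 ± 0.17 (adjusted p = 0.0995), and DESeq2 gave an adjusted p of 0.0134 with all libraries.

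General adipocyte markers were read beside Adipoq. The summed level of 8 of them (Plin1, Plin4, Cidec, Fabp4, Lipe, Pnpla2, Pparg and Aqp7) spanned 18030 to 21910 CPM in WT against 14840 to 18880 CPM in KO, and 7 of the 8 had a log2 fold change below 0. Of the 8, edgeR called 0 with all libraries, beside 0% of all tested genes. In the 6-library comparison it called Cidec (adjusted p = 0.0470), beside 3.32% of all tested genes. DESeq2 called Plin1 and Cidec (adjusted p = 0.00269 and 3.3e-05), beside 8.71% of the genes it tested. The lipid droplet protein genes Plin1 and Cidec lay below WT in every KO library, at -0.79 ± 0.18 and -0.54 ± 0.11 (log2 fold change ± SE), beside -0.53 for Adipoq. With total counts alone Plin1 overlapped between genotypes, while Cidec did not. The 6 brown adipocyte markers summed to 7533 to 9561 CPM in WT against 4213 to 7236 CPM in KO. Of these 6, edgeR called Elovl3 in the 6-library comparison (adjusted p = 0.0289). DESeq2 called Ucp1 and Elovl3 (adjusted p = 0.0136 and 0.00037), and the shares of all genes are those given above. Relative to the summed 8 adipocyte markers, the log2 ratio of Adipoq was -4.28 ± 0.08 for WT and -4.54 ± 0.14 for KO (SD, n = 4). The difference was -0.26, and all 4 KO ratios lay below all 4 WT ratios. Fabp4, a fatty acid binding protein with 7400 to 11090 CPM, makes up much of that sum and differed by -0.16 ± 0.15.

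The 250 bases before the annotated start of Adipoq and of Adipor1 are shown because these genes lay lower in every KO library after TMM scaling. Both windows hold a match to the CCAAT box, but so does that of Rbp4, whose groups overlapped, and the second Adipor1 start has no match. The sequences are RefSeq's on GRCm38.p6, with chr16:23146286-23146535 on the plus strand for Adipoq and chr1:134415128-134415377 on the plus strand for the first of the 2 listed Adipor1 starts. Capitals mark CCAAT on either strand.
Adipoq: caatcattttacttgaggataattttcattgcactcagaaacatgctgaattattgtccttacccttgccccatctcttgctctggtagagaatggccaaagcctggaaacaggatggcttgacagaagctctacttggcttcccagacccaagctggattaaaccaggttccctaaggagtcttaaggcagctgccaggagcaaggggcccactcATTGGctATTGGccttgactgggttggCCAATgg
Adipor1: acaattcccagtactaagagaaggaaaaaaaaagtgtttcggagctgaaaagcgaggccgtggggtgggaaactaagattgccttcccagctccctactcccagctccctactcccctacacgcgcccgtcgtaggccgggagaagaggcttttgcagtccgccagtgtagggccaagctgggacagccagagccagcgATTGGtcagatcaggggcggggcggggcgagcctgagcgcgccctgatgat
Adipoq held 3 matches, at 34, 27 and 7 bases before the start, and Adipor1 held 1, at 51 bases before it. Of 32851 promoter windows of the same length 33.8% held at least 1 such match, so the motif is common, and no factor binding was measured. Both strands were also searched for the TATA box as TATAAA (12.4% of windows), the nuclear receptor motif as AGGTCA (14%), the C/EBP motif as TTGCNNAA (9.56%) and the E-box as CACGTG (6.02%), and neither of these 2 windows held any of them.

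Adipor1, an adiponectin receptor tied to AMP-activated kinase, measured 258, 289, 321 and 292 CPM in WT and 200, 202, 219 and 219 CPM in KO. The 4 KO libraries were close to each other, and after TMM scaling all lay below the lowest WT library. With total counts alone KO replicate 4 lay just above WT replicate 1. The WT mean was 290 ± 25.6 CPM and the KO mean 209.6 ± 10.5 CPM (SD, n = 4), which is -0.47 ± 0.11 in log2 units (SE; adjusted p = 0.0981 in edgeR, 0.0893 in the 6-library comparison and 0.00291 in DESeq2). Relative to the adipocyte markers, the Adipor1 groups overlapped, at a log2 ratio of -6.13 ± 0.22 for WT and -6.31 ± 0.10 for KO (SD, n = 4).

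Adipor2, the receptor isoform tied to PPAR-alpha signalling, measured 697, 751, 660 and 852 CPM in WT and 615, 634, 709 and 651 CPM in KO. These groups overlapped, with KO replicate 3 above WT replicates 1 and 3. Their log2 fold change was -0.18 ± 0.12 (SE; edgeR adjusted p = 0.385). With scaling by total counts alone it was 0.07, a scaling that put the median over all genes at 0.264 in place of 0.00362. Per kilobase Adipor2 exceeded Adipor1 in every library, by a ratio of 2.16 ± 0.31 for WT and 2.61 ± 0.09 for KO (SD, n = 4), with no overlap between the groups. The difference between the receptors in their response to genotype was not tested.

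**Figure D2:**
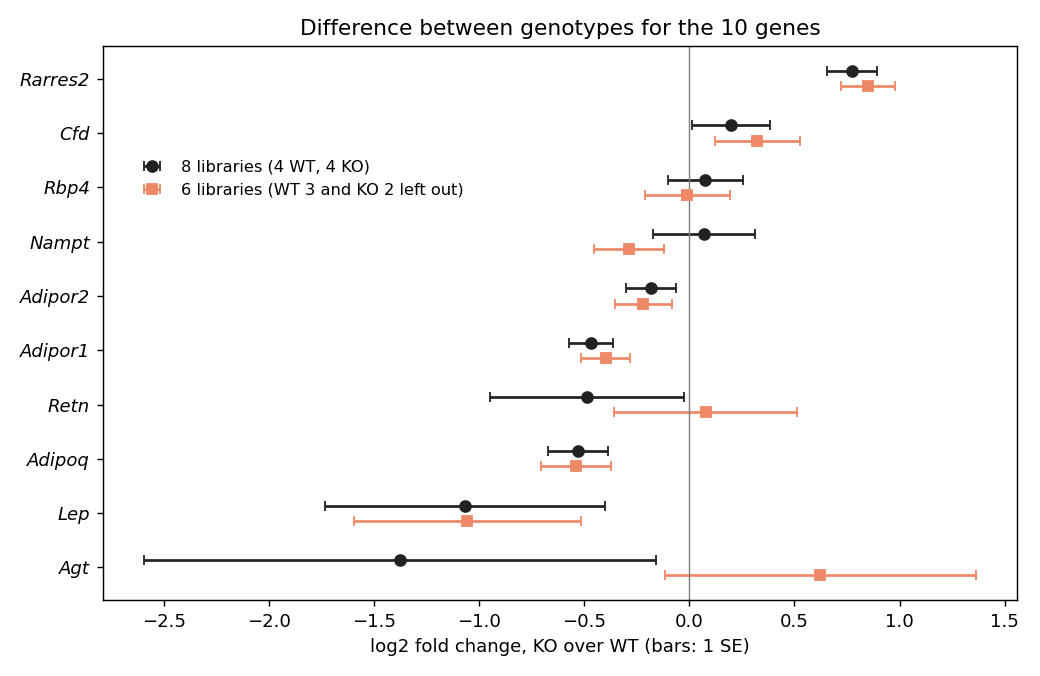
Log2 fold change of KO over WT for each gene (horizontal axis), with bars of 1 SE, from all 8 libraries (circles) and from the 6-library comparison (squares). Rarres2 sits at 0.77 and 0.85, Adipoq at -0.53 and -0.54, and Agt moves from -1.38 to 0.62 between the comparisons.

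Rarres2 encodes chemerin, a secreted precursor that proteases activate. It measured 34.7, 29.3, 36.6 and 26.8 CPM in WT replicates 1 to 4 and 54.1, 53.9, 57.5 and 52.3 CPM in KO replicates 1 to 4. The KO libraries formed a narrow band above all WT libraries, and KO replicate 2 lay inside that band. The WT mean was 31.9 ± 4.56 CPM and the KO mean 54.5 ± 2.17 CPM (SD, n = 4), a ratio of 1.71. The log2 fold change was 0.77 ± 0.12 (SE), and by p Rarres2 ranked 11 of 13901 genes (edgeR unadjusted p = 8.45e-05, adjusted p = 0.0874). Without KO replicate 2 the edgeR adjusted p was 0.0323, and with any other single library left out it was 0.114 to 0.2305. In the 6-library comparison Rarres2 rose by 0.85 ± 0.13 on the log2 scale (adjusted p = 0.0289). DESeq2 gave an adjusted p of 2.6e-05. Relative to the adipocyte markers the genotypes were further apart, at a log2 ratio of -9.32 ± 0.32 for WT and -8.26 ± 0.15 for KO (SD, n = 4).

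Markers of other cell types were read beside Rarres2. The 6 endothelial markers all had a log2 fold change above 0, and their summed level spanned 1044 to 1475 CPM in WT against 1330 to 2336 CPM in KO. In KO replicate 2 it was 1330 CPM, within the WT range. Of the 6 endothelial markers edgeR called 0 with all libraries, beside 0% of all tested genes. It called 3 higher in the 6-library comparison, beside 1.82% of all tested genes. Of these markers Esam lay above WT in every KO library. DESeq2 called Esam, Tie1 and Pecam1 higher (adjusted p = 0.0083, 0.0124 and 0.0409) but not Cdh5, Emcn or Kdr, beside 4% of the genes it tested. The 4 T and NK cell markers also all had a log2 fold change above 0, with a median of 2.04. They summed to 1.43 to 10.9 CPM in WT against 7.74 to 67.0 CPM in KO, or 7.74 to 17.6 CPM without KO replicate 2. Of these markers Klrb1c, an NK cell receptor, lay above WT in every KO library. DESeq2 called Klrb1c and Cd3g (adjusted p = 0.00185 and 0.0285), beside 8.71% of the genes it tested. In the 6-library comparison the median was 1.32 and edgeR called 0 of the 4 (adjusted p = 0.110 for Klrb1c and 0.410 for Cd3g). The 5 macrophage markers summed to 113 to 177 CPM in WT against 145 to 355 CPM in KO, and the 5 fibroblast and progenitor markers to 275 to 482 CPM in WT against 296 to 433 CPM in KO. The part of these cells in the Rarres2 difference was not tested. In GENCODE M21 the exons of Rarres2 share 892 bases with Lrrc61 on the opposite strand, and the strand setting of the counting is not known here. The WT mean of Lrrc61 was 4.81 ± 1.04 CPM and its KO mean 3.62 ± 1.62 CPM (SD, n = 4). The part of shared reads in the Rarres2 values was not tested.

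The chemerin receptors were measured at low levels. Cmklr1, the signalling receptor, spanned 3.84 to 11.9 CPM in WT against 5.67 to 8.95 CPM in KO, and differed by -0.26 ± 0.33 in log2 units (SE; edgeR adjusted p = 0.670). Ccrl2, a binding protein that presents chemerin, differed by 0.23 ± 0.47 (adjusted p = 0.799), and without WT replicate 1 or KO replicate 2 by -0.02 or -0.01. Of the 3 chemerin receptors tested, 1 lay higher, 2 lay lower and 0 were called.

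**Figure D3:**
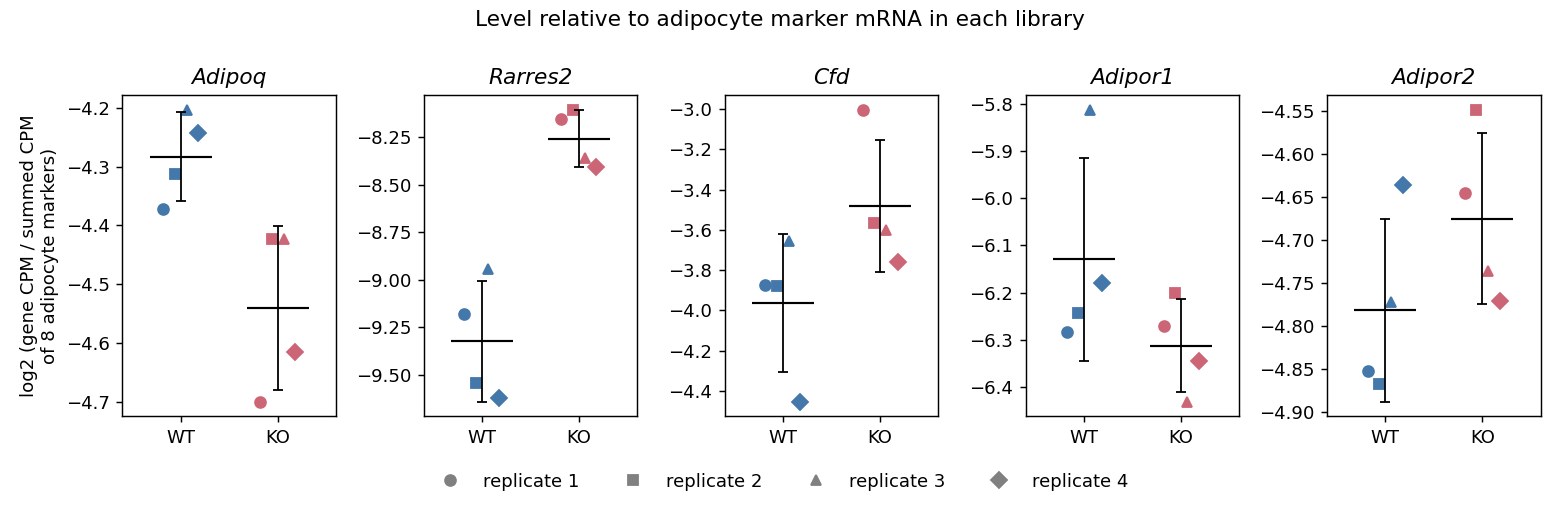
Log2 ratio of the CPM of 5 genes to the summed CPM of 8 adipocyte markers in every library (vertical axes differ by panel and do not start at 0); lines mark the mean and bars the SD. The KO points lie below all WT points for Adipoq and above them for Rarres2, and the groups overlap for Cfd, Adipor1 and Adipor2.

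Cfd encodes adipsin, the complement factor D protease. It measured 1374, 1490, 1433 and 967 CPM in WT and 1922, 1253, 1559 and 1313 CPM in KO. WT replicate 4 was the lowest and KO replicate 1 the highest, and the remaining libraries were interleaved. Cfd differed by 0.20 ± 0.19 on the log2 scale (SE; edgeR adjusted p = 0.544), by 0.06 without KO replicate 1 and by 0.08 without WT replicate 4. Per kilobase Cfd exceeded Adipoq by a ratio of 1.91 ± 0.41 for WT and 3.23 ± 1.1 for KO (SD, n = 4). That ratio was between 1.30 and 2.19 in WT and between 2.65 and 4.86 in KO.

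Of 9 genes of the alternative complement pathway 7 were tested, 3 of them higher and 4 lower in KO, and their median log2 difference was -0.11, against 0.15 in the 6-library comparison. C3, the protein whose cleavage this pathway amplifies, measured 482, 511, 438 and 472 CPM in WT and 302, 798, 355 and 278 CPM in KO. KO replicate 2 lay above all WT libraries and the other 3 KO libraries below them. With all libraries C3 differed by -0.14 ± 0.32 (SE; adjusted p = 0.826 in edgeR and 0.820 in DESeq2), and it fell by 0.65 in the 6-library comparison (log2 scale, adjusted p = 0.0395). Without KO replicate 2 alone C3 fell by 0.61 (adjusted p = 0.0474), and without KO replicate 4 it differed by 0.03. Cfp, properdin, which stabilises the convertase, differed by 0.25 ± 0.26 (adjusted p = 0.588).

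Lep, the leptin gene, was the least abundant of the 10 per kilobase. It measured 3.66, 10.2, 1.61 and 3.64 CPM in WT and 1.41, 0.715, 4.60 and 2.42 CPM in KO, from between 32 and 326 reads per library. WT replicate 2 was the highest, and KO replicate 3 lay above 3 of the 4 WT libraries. Lep differed by -1.07 ± 0.67 on the log2 scale (SE; edgeR adjusted p = 0.362), by -0.38 without WT replicate 2 and by -1.67 without KO replicate 3 (adjusted p = 0.235). A match to the C/EBP motif TTGCNNAA lay 55 bases before the annotated start of Lep, on both strands because the matched letters are a palindrome. The 250 bases are RefSeq's on GRCm38.p6, chr6:29059971-29060220 on the plus strand, with the match in capitals.
Lep: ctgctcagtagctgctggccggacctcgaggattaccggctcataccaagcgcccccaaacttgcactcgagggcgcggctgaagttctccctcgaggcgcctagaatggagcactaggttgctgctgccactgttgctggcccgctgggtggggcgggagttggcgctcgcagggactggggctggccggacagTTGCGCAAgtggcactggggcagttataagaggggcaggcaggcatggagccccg
That motif was found in 9.56% of promoter windows. Lepr, the leptin receptor, stayed between 0.160 and 0.789 CPM in every library (log2 fold change 0.35 ± 0.60 SE, adjusted p = 0.755). Stat3, a transcription factor activated by the leptin receptor, differed by 0.32 ± 0.19 (adjusted p = 0.338), with 187 CPM in KO replicate 2 and 92.5 to 112 CPM elsewhere, and by 0.08 without KO replicate 2. All 5 genes tested in the leptin receptor list had a log2 fold change above 0 and 0 were called.

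Retn encodes resistin, which in mice is an adipocyte hormone. It measured 45.6, 31.7, 125 and 78.1 CPM in WT and 44.2, 35.8, 83.9 and 36.1 CPM in KO. Replicate 3 was the highest of each group, and the groups overlapped throughout. Retn differed by -0.49 ± 0.46 on the log2 scale (SE; edgeR adjusted p = 0.555), by -0.05 without WT replicate 3 and by 0.08 ± 0.43 in the 6-library comparison. Of the 3 resistin receptor candidates tested, 2 lay higher, 1 lay lower and 0 were called.

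Nampt makes nicotinamide mononucleotide in the salvage of NAD and is also secreted as visfatin. It measured 271, 382, 272 and 408 CPM in WT and 276, 530, 309 and 284 CPM in KO. KO replicate 2 was the highest library and the other 3 KO libraries lay within the WT range. Nampt differed by 0.07 ± 0.24 on the log2 scale (SE; edgeR adjusted p = 0.889), and by -0.20 without KO replicate 2 and -0.02 without WT replicate 1 or WT replicate 3. KO replicate 2 also had the highest macrophage marker sum, 355 CPM, and its part in this value was not tested.

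Of the 8 NAD salvage genes tested, 5 lay lower and 3 higher in KO, and 0 were called. Sirt3, a mitochondrial deacylase that uses NAD, spanned 39.4 to 70.8 CPM in WT against 32.2 to 44.0 CPM in KO, with overlap (log2 fold change -0.54 ± 0.19 SE, edgeR adjusted p = 0.168). Nmnat1 and Nmnat3, the nuclear and mitochondrial enzymes that follow Nampt, differed by -0.31 ± 0.14 and -0.66 ± 0.35 (adjusted p = 0.231 and 0.291). Nmnat3 differed by -1.06 without KO replicate 2 (adjusted p = 0.0693) and by -0.44 without KO replicate 4.

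Rbp4 carries retinol in blood. It measured 33.8, 52.3, 46.2 and 57.2 CPM in WT and 39.0, 57.6, 52.5 and 50.8 CPM in KO. The groups covered nearly the same range, with replicate 1 the lowest of each. Rbp4 differed by 0.08 ± 0.18 on the log2 scale (SE; edgeR adjusted p = 0.826), and by -0.06 when WT replicate 1 was left out and by -0.01 in the 6-library comparison. Hepatocyte markers (Alb, Apoa1, Ttr and Serpina1a) together reached at most 0.904 CPM in any library. Of 5 genes for retinol binding and uptake, 1 had enough counts to be tested; the uptake receptor Stra6 reached at most 0.335 CPM.

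Agt encodes angiotensinogen, the precursor of angiotensin. It measured 1.56, 2.07, 26.4 and 4.80 CPM in WT and 8.11, 0.358, 3.93 and 0.986 CPM in KO. WT replicate 3, the library with skeletal muscle RNA, was far above the rest, and values within KO spanned 22.7-fold. Agt differed by -1.38 ± 1.22 on the log2 scale (SE; edgeR adjusted p = 0.528), by 0.25 when WT replicate 3 was left out and by 0.62 in the 6-library comparison. The part of muscle in the Agt level of that library was not tested.

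Of 10 genes of the renin-angiotensin system 9 were matched and 6 tested, with 2 higher, 4 lower and 0 called. Ren1, renin, which cleaves angiotensinogen, reached at most 0.301 CPM. Agtr1a, the angiotensin receptor, spanned 9.55 to 13.6 CPM in WT against 10.5 to 16.0 CPM in KO (log2 fold change 0.19 ± 0.18 SE, adjusted p = 0.552). Lnpep, an aminopeptidase that binds angiotensin IV and travels with glucose transporter vesicles in fat, lay lower in every KO library after TMM scaling. With total counts alone Lnpep overlapped between genotypes. Its log2 fold change was -0.38 ± 0.10 (SE; adjusted p = 0.112 in edgeR, 0.0964 in the 6-library comparison and 0.0136 in DESeq2).

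Further genes of adiponectin assembly and action were followed as lists. Of 7 genes for binding, adaptors and assembly, 4 lay higher and 3 lower, with a median of 0.00253. Gstk1, also called DsbA-L, which promotes adiponectin multimer assembly, lay lower in every KO library, with group means of 73.5 and 54.5 CPM (n = 4). With total counts alone Gstk1 overlapped between genotypes. Its log2 fold change was -0.43 ± 0.15 (SE; edgeR adjusted p = 0.158). Cdh13, T-cadherin, which binds adiponectin on endothelium and muscle, differed by 0.09 ± 0.31 (adjusted p = 0.892), and within KO lay between 34.2 CPM in replicate 2 and 97.7 CPM in replicate 4. The sign of Cdh13 changed without WT replicate 4 (-0.01), KO replicate 1 (-0.04) or KO replicate 4 (-0.07). Of 13 genes downstream of the receptors, among them AMP-activated kinase subunits and ceramidases, 5 lay higher, 8 lower and 0 were called. Ppara had the smallest p there, with -0.61 ± 0.30 (adjusted p = 0.264).

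Among 10 transcription factors known to act on adipokine genes, 6 lay lower and 4 higher in KO, and 0 were called. Rxra and Cebpa, which act at adipocyte promoters, lay lower in every KO library after TMM scaling, beside 7.56% of all tested genes. They differed by -0.41 ± 0.12 and -0.59 ± 0.17 (log2 fold change ± SE, edgeR adjusted p = 0.133 and 0.134). With total counts alone both overlapped between genotypes. Nfya, a subunit of the factor that binds CCAAT, lay higher in every KO library (0.27 ± 0.11, adjusted p = 0.215). Srebf1 differed by -0.32 ± 0.17 (adjusted p = 0.290). DESeq2 called Rxra and Cebpa lower (adjusted p = 0.0424 and 0.0283), beside 4.71% of the genes it tested.

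Of 37 other hormones and secreted factors of fat 33 were tested, 16 higher and 17 lower in KO, and their median log2 difference was -0.04, against 0.03 in the 6-library comparison. Fst, follistatin, which binds activins and myostatin, measured 16.7, 24.2, 20.0 and 17.1 CPM in WT and 51.8, 59.5, 37.9 and 34.6 CPM in KO. All KO libraries lay above all WT libraries, by 1.24 ± 0.20 on the log2 scale (SE; adjusted p = 0.0874 in edgeR, 0.0335 in the 6-library comparison and 1.26e-05 in DESeq2). Nrg4, a brown fat hormone that acts on liver, and C1qtnf12, an adiponectin paralogue, lay lower in every KO library, at -0.48 ± 0.11 and -0.33 ± 0.09 (edgeR adjusted p = 0.0981 and 0.126). With total counts alone C1qtnf12 overlapped between genotypes, while Nrg4 did not. Lcn2, lipocalin-2, spanned 0.904 to 3.54 CPM in WT against 0.626 to 1.15 CPM in KO (-1.42 ± 0.46, adjusted p = 0.151). In DESeq2 the adjusted p was 0.00578 for Nrg4, 0.0283 for C1qtnf12 and 0.0391 for Lcn2. DESeq2 called 8.71% of all the genes it tested. In the 6-library comparison 1 of the 33, Fst, was called, beside 3.32% of all tested genes.

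**Figure D4:**
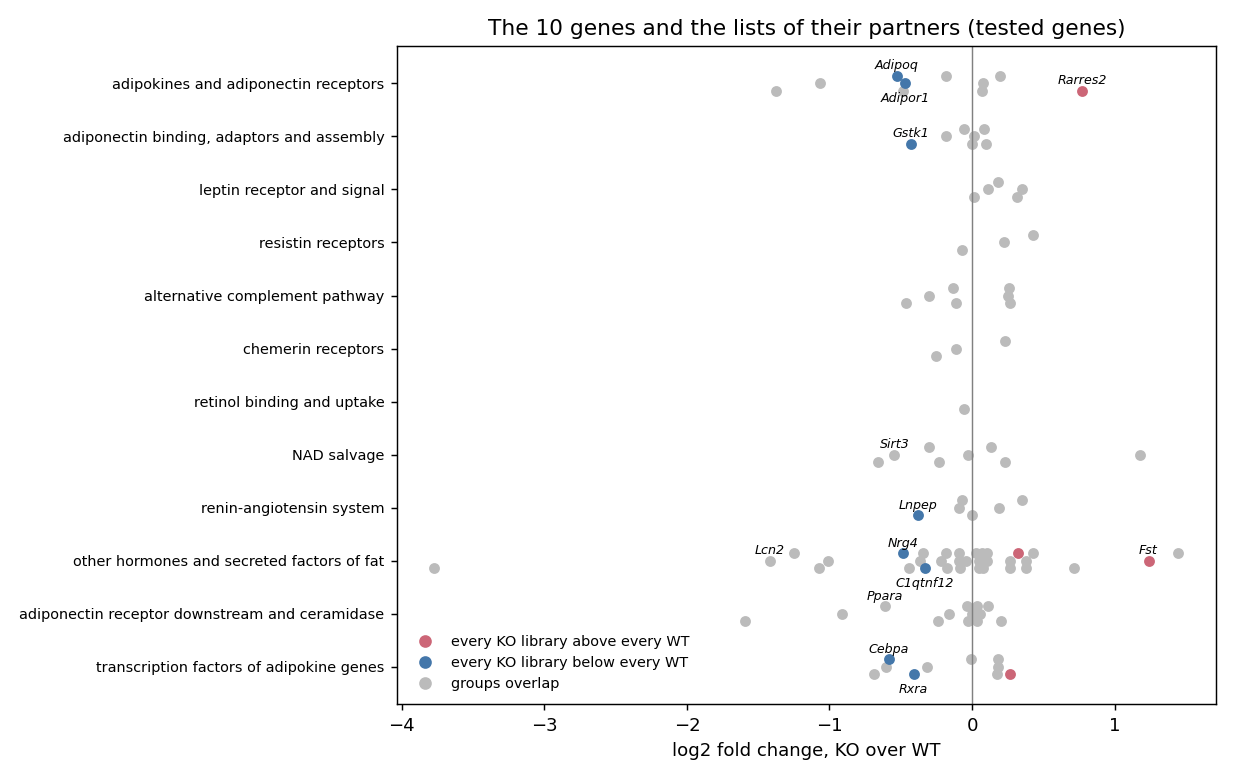
Log2 fold change of KO over WT (horizontal axis) for every tested gene of the 10 and of the lists around them (rows); colour marks genes whose KO libraries all lie above (red) or below (blue) all WT libraries. Coloured points are found in 5 of the 12 rows, with Fst at 1.24 and Rarres2 at 0.77 farthest to the right among them, and most points are grey.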

How the data were processed

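Per the labels' protocols, mRNA was selected with oligo(dT) beads and dUTP was built into second-strand cDNA. The authors deposited one table of raw counts per gene. The submitters' processing notes name GRCm39. Aligner, counting program, annotation and strand setting: not given in the sources used here. Symbols and exon lengths came from GENCODE M21 (GRCm38): 18321 of 18395 genes had a symbol, and lengths are those of that annotation, not necessarily of the one counted. Promoter sequences were found for 9 of the 10 genes.

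Genes were kept by filterByExpr (13901, all 10 included). KO was compared with WT by the robust quasi-likelihood F test of edgeR 4.0.16 in R 4.3.3, with TMM scaling, group as the only term, Benjamini-Hochberg adjustment over all tested genes and a threshold of 0.05. Each SE is the absolute log2 fold change over the square root of F. DESeq2 1.42.0, with its own filtering, and limma-voom from limma 3.58.1 were alternatives. The genes, lists and the 6-library comparison were chosen with earlier results of these data known. The text names the 10 genes, Fermt2, genes of the lists of direct partners, up to 4 genes with the smallest p in each other list, and the 3 nearest profiles of Adipoq, Lep and Cfd; Lrrc61, the marker genes given with values and the nearest profiles of Rarres2 and Adipor1 were added after values were seen. One list entry, Agtr1b, was not matched. Counts were also simulated with 200 changed genes among 13901. Of the 1.5-, 2- and 4-fold changes edgeR found 15%, 77.9% and 100%, and 2 of its 136 calls were false. For DESeq2 these shares were 20%, 83.8% and 100%, but 12 of its 153 calls were false. A DESeq2 call was thus more often false than an edgeR call in this simulation. The simulation gave every gene the same dispersion, with no shift in composition between the groups and no outlying library. The real libraries differ from it in these respects, so its shares do not measure how many calls in the data were false.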

Additional observations from a re-analysis of the deposited data

Results flagged for a closer look

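A library standing away from the other 3 of its group was looked for in 20 groups of 4, and chance alone gives about 1 in 20. It was found for Nampt in KO replicate 2, at 529.6 CPM against 276 to 309 CPM in the other KO libraries, and for Agt in WT replicate 3, at 26.42 CPM against 1.56 to 4.80 CPM in the other WT libraries.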

How the results depend on the processing

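For the 10 genes, 181 of 200 values kept their direction and their side of the threshold over 20 alternative settings, 8 passed the threshold and 11 changed sign. Rarres2 kept its direction throughout (0.70 to 1.04) and passed in 5 settings; Adipoq (-0.65 to -0.28) passed in 1 and Adipor1 (-0.52 to -0.21) in 2. The number of genes called, 0 in the main test, and the number of the 10 called, also 0, were 882 (858 higher) and 1 with total library size only, 1113 and 3 with DESeq2, 911 and 2 with limma-voom with quality weights, 461 and 1 with 6 libraries, and 249 and 2 at an adjusted p under 0.10. Without a filter 1 gene was called. With each library left out in turn the counts ranged from 0 to 361 and from 0 to 1, at 361 without KO replicate 2, 3 without WT replicate 4, 1 without WT replicate 1 and 0 otherwise. With the replicate block 0 genes and 0 of the 10 were called. The deviations of same-numbered libraries had correlations of -0.044, -0.00405, -0.135 and 0.254 across genes. The last, for replicate 4, was the highest of any WT and KO pair. These few values cannot show whether the numbers mark pairs. The number of the 10 that lay lower was 5 to 8.

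Signs changed as follows, and the cause was not tested. With total library size only, Adipor2 was at 0.0732, C3 at 0.121 and Cmklr1 at 0.00327. With 6 libraries, Retn was at 0.0767, Nampt at -0.288, Rbp4 at -0.0107 and Agt at 0.623. With quality weights Nampt was at -0.186. When single libraries were left out, Nampt spanned -0.202 to 0.18, Rbp4 -0.0561 to 0.179, Agt -2.315 to 0.247, Cdh13 -0.0675 to 0.327, C3 -0.611 to 0.0261 and Ccrl2 -0.0233 to 0.865. With 16 to 789 reads per library for Agt and 32 to 326 for Lep, their differences were not detectable at this spread between libraries.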

Other observations

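The genes whose log2 CPM profile over the 8 libraries lay nearest to those of Adipoq, Lep, Cfd, Rarres2 and Adipor1 were found among 11327 other genes, by the root mean square distance of profiles centred on their own mean. For Adipoq they were Mrps31, a mitochondrial ribosomal protein gene, at 0.0389, Fam136a at 0.0587 and Tmem70, an assembly factor of ATP synthase, at 0.0597, where Adipoq itself lay 0.314 from a flat profile. Mrps31 measured 32.4, 38.4, 35.4 and 40.9 CPM in WT and 20.8, 23.9, 30.7 and 25.0 CPM in KO. For Lep the nearest were Prelp at 0.506, Kng2 at 0.513 and Pld6 at 0.535, against 1.101 from a flat profile, so no gene followed Lep closely. For Cfd they were Dmap1 at 0.106, Trim24 at 0.123 and Rbbp8 at 0.126, against 0.265.

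For Rarres2 the nearest were Mdk, the gene of the secreted growth factor midkine, at 0.132, Tmem176a at 0.141 and Ttc39b at 0.157, against 0.413 from a flat profile. Mdk measured 1.83, 1.47, 1.71 and 1.48 CPM in WT and 3.07, 2.35, 2.97 and 3.03 CPM in KO. For Adipor1 they were Bsg, which encodes basigin, at 0.0443, Rnf10 at 0.0482 and Ifrd2 at 0.0532, against 0.25. Bsg measured 722, 862, 929 and 809 CPM in WT and 547, 571, 639 and 593 CPM in KO. These distances describe likeness over 8 libraries and include the difference between the groups.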
